A study of Mus musculus with 4 samples.

Results

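The voltage-gated sodium and calcium channel genes were examined in E13.5 mouse limb and brain, with and without the transcriptional repressor gene Rest. Members were all probes named for a sodium channel subunit (Scn, with an a or b suffix) or a voltage-gated calcium channel subunit (Cacna, Cacna2d, Cacnb or Cacng), so that pore-forming and accessory subunits were both included. This gave 75 probes for 39 genes, of 27630 genes or unnamed transcripts on the array. A gene with several probes was represented by the one with the highest mean signal over all arrays, and 21 of the 39 had more than 1 probe.

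The 4 groups had 1 array each: CKO limb, WT limb, CKO brain and WT brain. CKO embryos carried a conditional ablation of Rest on a mixed 129 and C57BL/6 background, and WT embryos were wild type on the same background. In CKO embryos floxed Rest was removed in utero by Cre alleles that doxycycline switches on, and doxycycline given over E8.5 to E13.5 is recorded for all 4 samples, WT included. The promoter that drives Cre, the part of Rest that is floxed, whether WT embryos carried Cre, and whether RNA came from 1 embryo or several are not given in the sources used here. No group had a second array, so a CKO and a WT sample of the same tissue were not set against each other in a test, and their differences are described by size.

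Voltage-gated sodium channels open on depolarisation and carry the rising phase of the action potential in neurons and muscle, through a large pore-forming subunit that accessory beta subunits escort and tune. Voltage-gated calcium channels turn depolarisation into calcium entry, which triggers transmitter release at nerve terminals and contraction in muscle; their pore subunits are joined by cytoplasmic beta and by α2δ subunits. Genes of the gamma family encode a skeletal muscle channel subunit and also TARPs, which bring AMPA-type glutamate receptors to synapses. REST, a zinc-finger repressor, binds the RE1 element and keeps neuronal genes off outside the nervous system, and the sodium channel gene now called Scn2a, in rat, was among those in which this element was first described.

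All log2 levels are the processed signal relative to the 75th percentile of the same array, so that 0 is that percentile. A level can be compared between arrays for a given probe but not between probes. Rest itself was lower in CKO at each of its 3 probes. At the probe on chr5:77709928-77709987 of mm9, the build of the array's annotation, Rest read -1.56 in CKO limb, against 2.41 in WT limb, and -3.73 in CKO brain, against -0.16 in WT brain, a 15.7-fold reduction for limb and an 11.9-fold one for brain. In CKO limb the probe on chr5:77711857-77711916 was 17.2-fold lower, and in CKO brain it was at least 6.60-fold lower. The smallest difference was at the probe on chr5:77715162-77715221, with 4.03-fold less signal in CKO limb and 1.88-fold less in CKO brain. Which of these probes lie in the floxed part is not known here, so they check the labels only in that all agree in direction.

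All arrays shared 1 slide and 1 scan day. Of 43379 non-control spots, 68.6% were well above background on the CKO limb array, 62.7% on WT limb, 70.7% on CKO brain and 64.5% on WT brain, so the CKO array of each pair detected dimmer probes. Skeletal muscle markers summed to 467 times the 75th percentile in CKO limb and 350.3 times in WT limb, against 2.50 in CKO brain and 1.88 in WT brain. Pan-neuronal markers summed to 37.5 in CKO limb, 19.8 in WT limb, 565 in CKO brain and 580 in WT brain, so each sample carried the markers of its labelled tissue. The one error these arrays give is technical: 245 probes printed 10 times each gave a median SD of a CKO minus WT difference in limb of 0.031 log2 for bright probes (mean level above -1), 0.075 for middling ones and 0.31 for dim ones (below -4), and 0.027, 0.068 and 0.31 in brain. It covers neither labelling nor differences between embryos. Values after ± below are this SD.

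Of the 39 channel genes, 24 were well above background on all 4 arrays and 4 on none. Detected genes numbered 32 in CKO limb, 26 in WT limb, 34 in CKO brain and 32 in WT brain. Cacna1a, Cacng3, Cacng5, Scn10a, Scn1a and Scn3a, 6 genes in all, were detected in CKO limb and not in WT limb, and 0 genes showed the reverse. Over all 27630 genes 5.75% were detected in CKO limb and not in WT limb, and 0.68% the reverse. Cacna1a, Cacng3 and Scn10a read -5.62, -5.50 and -5.41 in CKO limb, under the lowest detected level of the WT limb array (-4.95), so detection in CKO limb alone gives no difference for these 3. The 4 genes not well above background anywhere were Scn7a, Cacna1e, Cacna1f and Cacna1i.

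**Figure D1:**
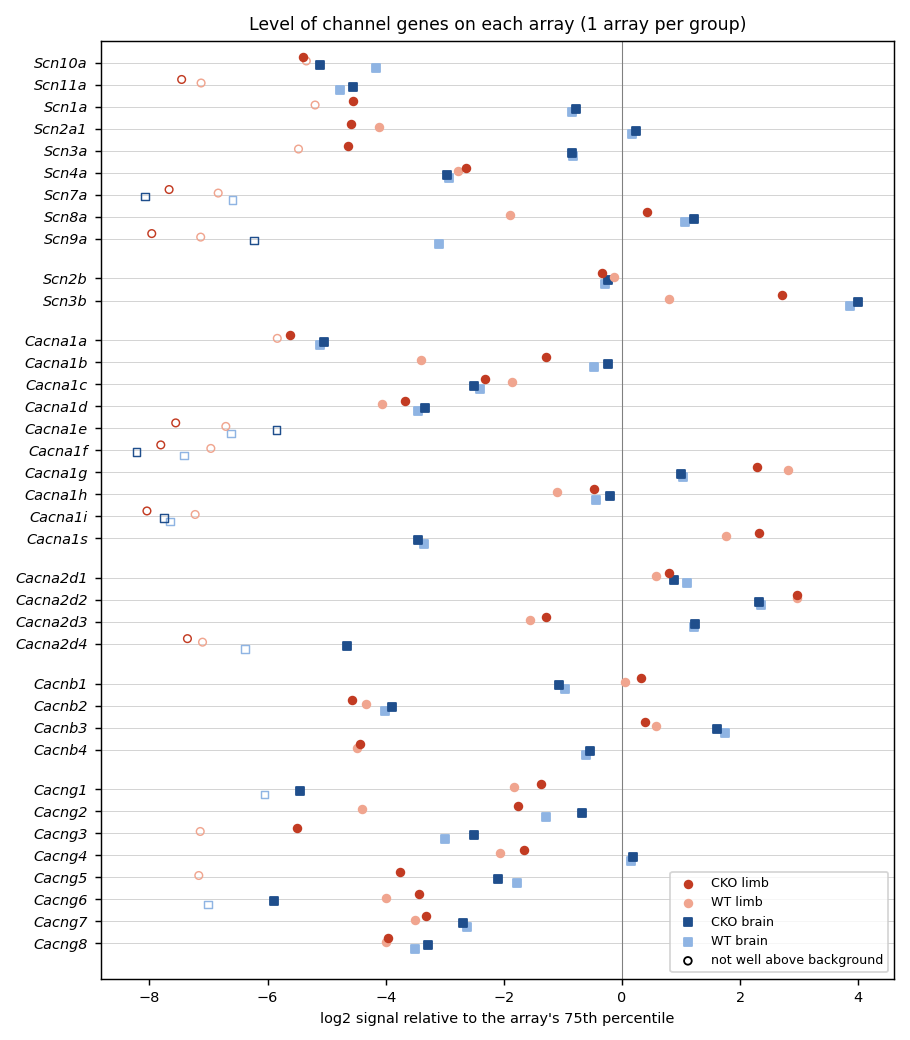
Log2 signal of 37 channel genes relative to the array's 75th percentile, with CKO limb, WT limb, CKO brain and WT brain as 1 point each and open points where the probe was not well above background. The brain pairs lie close together for nearly all genes, while the CKO limb points of Scn8a, Scn3b, Cacna1b, Cacng2 and Cacng5 lie to the right of their WT limb points.

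In limb, 32 of the 39 genes could be compared, 26 of them measured on both arrays. Cacng2, Scn8a, Cacna1b, Scn3b and Cacng5 stood at least 2-fold higher in CKO limb and none stood 2-fold lower (0 genes). The other 27 were not called at 2-fold. Among these 27, Scn1a, Scn3a, Scn10a, Cacna1a and Cacng3 have only a lower bound, so 2-fold or more is not excluded for them. The 5 higher genes were 15.6% of those compared. Over all 18448 genes compared, 2.49% passed that size upwards and 2.16% downwards. The median difference of the 32 channel genes was 0.28 log2, beside -0.02 over all genes. With normexp background correction in place of the processed signal, the median was 0.07 for the channel genes and -0.02 over all genes. The genes that were higher came from 4 of the 6 subunit classes: 1 of 7 sodium pore genes compared, 1 of 3 sodium beta genes, 1 of 7 calcium pore genes and 2 of 8 gamma genes, against 0 of 3 α2δ genes and 0 of 4 calcium beta genes. In whole-tissue RNA, more cells of a type and more RNA per cell cannot be told apart.

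**Figure D2:**
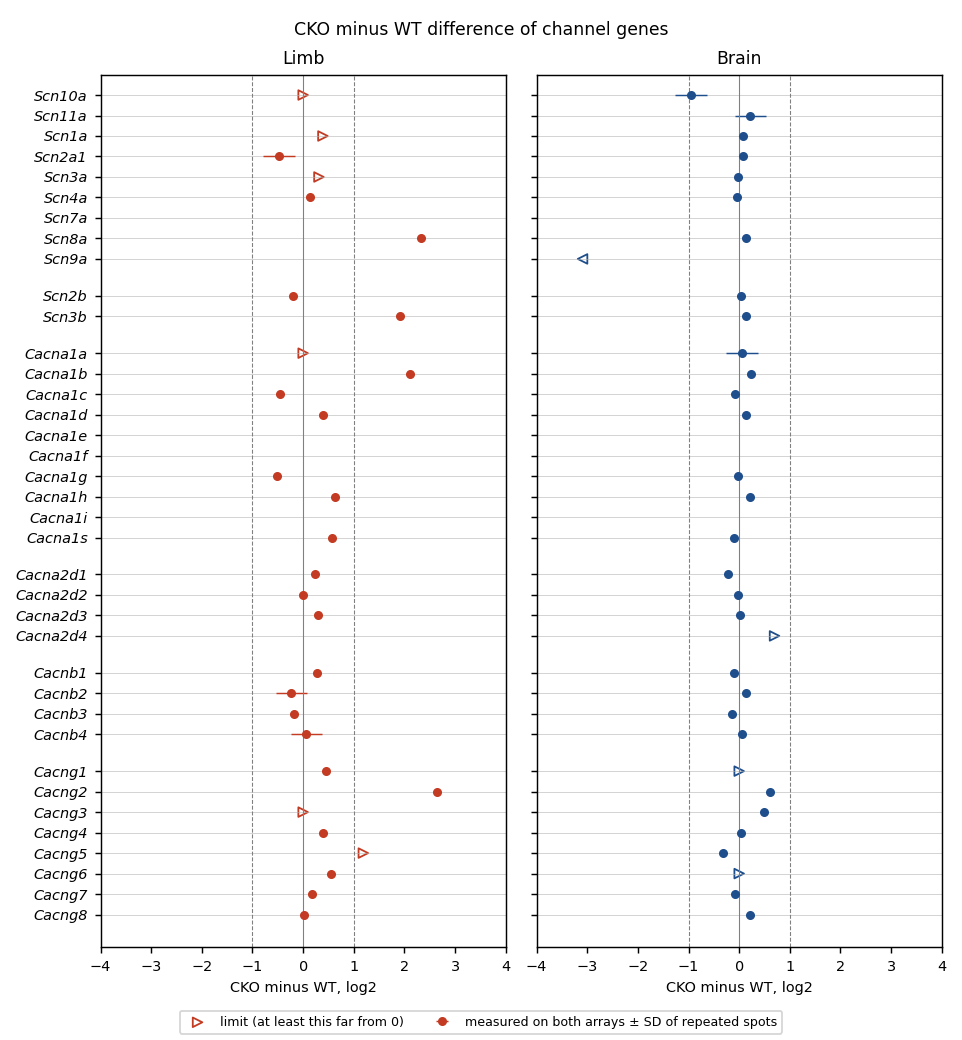
CKO minus WT log2 difference of 37 channel genes in limb (left) and brain (right), filled points with the SD of repeated spots and open triangles for limits where 1 array was not well above background; dashed lines mark 2-fold. In limb 5 genes lie beyond the upper line, and in brain 1 gene, Scn9a, lies beyond the lower one.

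Among the sodium pore genes, Scn8a, whose channel gathers at axon initial segments and nodes of Ranvier, read 0.42 in CKO limb, against -1.90 in WT limb, and 1.21 in CKO brain, against 1.07 in WT brain. The limb difference of 2.32 ± 0.031 log2 was 5.0-fold, and WT limb was the low array of the 4. A second Scn8a probe read -4.32 in CKO limb and was not well above background in WT limb, which bounds its difference at 0.63 log2 or more. That second probe lies at chr15:100870822-100870881 on mm9. Its 60 bases are shown as the dimmer Scn8a reading, whose bound is under 2-fold.
Scn8a probe: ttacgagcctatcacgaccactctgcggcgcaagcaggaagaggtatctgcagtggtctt

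The other neuronal sodium pore genes did not show a difference of that size at their brightest probe. Scn2a1, the array's name for Scn2a, the channel of early axon initial segments, read -4.59 in CKO limb, against -4.11 in WT limb, and 0.24 in CKO brain, against 0.17 in WT brain. Its limb difference was -0.48 ± 0.31 log2, and its other 2 probes gave bounds of 0.00 and at least 0.38, so both limb arrays sat near the detection limit at every probe. The probe, on chr2:65602605-65602664 of mm9, is printed because Scn2a1 is the sodium channel gene best known for an RE1.
Scn2a1 probe: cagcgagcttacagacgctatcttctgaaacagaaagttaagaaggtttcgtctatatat

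Scn1a, expressed in inhibitory neurons among others, read -4.56 in CKO limb and was not well above background in WT limb, a difference of at least 0.39 log2. Scn3a, the sodium channel most typical of embryonic neurons, read -4.64 in CKO limb and was likewise not well above background in WT limb, at least 0.31. A second Scn3a probe, on chr2:65295675-65295734, was further apart, with -3.75 in CKO limb and no detection in WT limb, at least 2.30-fold, whereas it read -3.46 in CKO brain and -3.48 in WT brain.

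Scn4a, the skeletal muscle sodium channel, read -2.64 in CKO limb and -2.78 in WT limb, a difference of 0.14 ± 0.075 log2. Scn10a, a channel of peripheral sensory neurons, was detected in CKO limb alone at -5.41, with a bound of 0.00. Scn9a and Scn11a, which share that cell type, were not well above background in either limb sample.

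The sodium beta subunits differed among themselves. Scn3b, an accessory subunit of neuronal channels, read 2.71 in CKO limb, against 0.80 in WT limb, and 4.0 in CKO brain, against 3.86 in WT brain. Its limb difference was 1.91 ± 0.031 log2, or 3.75-fold, and WT limb was again the low array. The other 2 Scn3b probes gave 1.93 and 2.20 log2, so all 3 put the gene 3.75- to 4.59-fold higher in CKO limb. The third of them, on chr9:40090063-40090122 of mm9, is printed as the probe with the largest Scn3b difference.
Scn3b probe: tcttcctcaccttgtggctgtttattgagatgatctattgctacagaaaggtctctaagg

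Scn2b, a beta subunit that links to the pore by a disulphide bond, read -0.33 in CKO limb and -0.13 in WT limb, a difference of -0.20 ± 0.031, which was under 1.5-fold.

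Among the calcium pore genes, Cacna1b, the N-type channel of presynaptic terminals, read -1.29 in CKO limb, against -3.40 in WT limb, and -0.24 in CKO brain, against -0.47 in WT brain. The limb difference was 2.11 ± 0.075 log2, or 4.31-fold. A second probe read -2.86 in CKO limb, against -4.45 in WT limb, 3.01-fold higher. With normexp background correction in place of the processed signal, the difference at the brightest probe was 1.46 log2, which keeps the call at a smaller size. Cacna1a, the P/Q-type channel of the same terminals, was dim: -5.62 in CKO limb with no detection in WT limb and a bound of 0.00.

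The L-type and T-type pore genes stayed under 2-fold in limb. Cacna1c, the L-type channel of heart and smooth muscle, read -2.32 in CKO limb and -1.86 in WT limb (-0.46 ± 0.075). Cacna1d, an L-type channel of endocrine and hair cells, read -3.67 in CKO limb and -4.07 in WT limb (0.39 ± 0.075). Cacna1g, a T-type channel that opens near rest, read 2.29 in CKO limb and 2.81 in WT limb, and its difference of -0.52 ± 0.031 was the lowest of the 26 genes measured on both limb arrays. Cacna1h, another T-type channel, went the other way, with -0.47 in CKO limb and -1.10 in WT limb (0.63 ± 0.031), and its second detected probe gave 0.45. These differences exceed the repeat-spot SD, which says nothing of how far embryos differ.

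The gamma family held 2 of the 5 genes. Cacng2, which encodes the TARP stargazin, read -1.76 in CKO limb, against -4.40 in WT limb, and -0.68 in CKO brain, against -1.29 in WT brain. Its limb difference of 2.64 ± 0.075 log2, or 6.24-fold, was the highest among the channel genes. Another 2 of its 4 probes were detected in CKO limb at -2.46 and -2.42 and not in WT limb, at least 5.62- and 5.77-fold, and the remaining probe was not well above background on any array. With normexp background correction the difference of the brightest probe was 1.53 log2.

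Cacng5, a type II TARP, read -3.76 in CKO limb and was not well above background in WT limb, against -2.10 in CKO brain and -1.78 in WT brain. The bound in limb was 1.19 log2, at least 2.28-fold, from its 1 probe. This call ended with normexp correction, where its value was 0.57. Cacng3, the TARP nearest to Cacng2, read -5.50 in CKO limb and was not detected in WT limb, with a bound of 0.00. Its brain levels were -2.50 in CKO and -2.99 in WT. Its probe, on chr7:129912284-129912343 of mm9, is printed as the TARP reading that had to stay without a size in limb.
Cacng3 probe: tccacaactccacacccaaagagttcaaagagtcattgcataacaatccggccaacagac

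The remaining gamma genes were under 1.5-fold apart in limb. The TARP gene Cacng4 differed by 0.40 ± 0.075 log2, Cacng7 by 0.18 ± 0.075 and Cacng8 by 0.02 ± 0.075. Cacng6, which is expressed in skeletal muscle, read -3.44 in CKO limb and -3.99 in WT limb (0.55 ± 0.075). Cacng1, the gamma subunit of the skeletal muscle channel, read -1.38 in CKO limb and -1.82 in WT limb (0.44 ± 0.075).

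The α2δ genes, whose products carry channels to the cell surface and bind gabapentinoid drugs, were under 1.5-fold apart in limb at their brightest probes. Cacna2d1 differed by 0.23 ± 0.031 log2 in limb and Cacna2d3 by 0.28 ± 0.075. Cacna2d2 read 2.96 in CKO limb and 2.97 in WT limb at its brightest probe, a difference of -0.01 ± 0.031. Its probes disagreed. A second one, on chr9:107431113-107431172, read -1.75 in CKO limb, against -3.20 in WT limb, 2.74-fold higher, and 0.74 in CKO brain, against 0.78 in WT brain. Another probe, whose 60 bases are spread over the 144 positions of chr9:107429535-107429678 on mm9 and so cross a splice junction, read -4.79 in CKO limb and was not detected in WT limb, while both brain arrays read -2.14. At the brightest probe limb was above brain, and at the other 3 brain was above limb, so the choice of probe decides what is said of this gene. The probe that crosses a junction is printed because its full length is found in spliced Cacna2d2 RNA.
Cacna2d2 probe: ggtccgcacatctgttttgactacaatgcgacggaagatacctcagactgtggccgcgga

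None of the 4 calcium beta genes, which encode the cytoplasmic subunits that shield the pore from degradation, reached 1.5-fold in limb. Cacnb1, the muscle beta subunit, differed by 0.28 ± 0.031 log2, Cacnb2 by -0.23 ± 0.31, Cacnb3 by -0.17 ± 0.031 and Cacnb4 by 0.06 ± 0.31. Cacnb4, which is chiefly neuronal, read -4.43 in CKO limb and -4.49 in WT limb, far under its brain readings of -0.55 in CKO and -0.60 in WT.

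**Figure D3:**
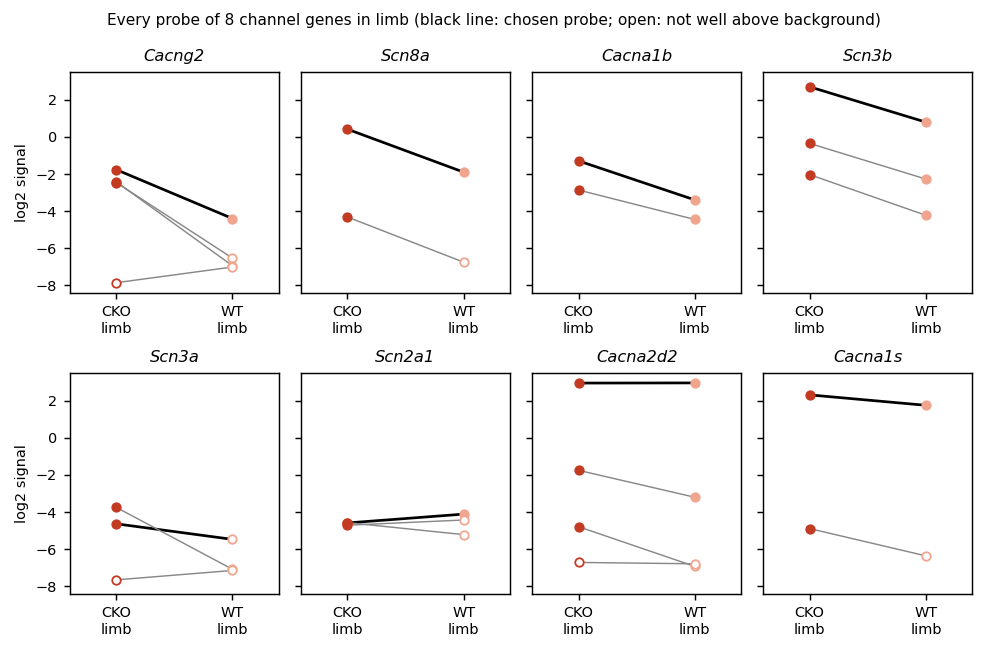
Log2 signal in CKO limb and WT limb of every probe of 8 channel genes, each line 1 probe, black for the brightest and open points where not well above background. The detected probes of Cacng2, Scn8a, Cacna1b and Scn3b all fall towards WT limb, and those of Cacna2d2 do not agree.

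Channel genes of muscle did not all differ in one direction in limb. Cacna1s, the voltage sensor of skeletal muscle, read 2.32 in CKO limb, against 1.76 in WT limb, a difference of 0.56 ± 0.031 log2, beside 0.44 for Cacng1, 0.28 for Cacnb1 and 0.14 for Scn4a, whereas Cacna1c, of heart and smooth muscle, differed by -0.46. Of 21 skeletal muscle markers compared in limb, 20 were above 0 and 0 reached 2-fold, with a median of 0.44 and a highest difference of 0.64 log2. The summed level of that list was 467 in CKO limb and 350.3 in WT limb. Its part in these differences was not tested. When the detected probes of each gene were averaged, Cacna1s joined the genes at least 2-fold higher, through a second probe that read -4.89 in CKO limb and was not detected in WT limb.

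Neuronal markers stood higher in CKO limb as well. Of 17 pan-neuronal genes compared, 9 were at least 2-fold higher and 0 lower, with a median of 1.70 log2, and their summed level was 37.5 in CKO limb and 19.8 in WT limb. Markers of the peripheral nerves that enter the limb did not show this: sensory ganglion genes had 0 of 10 past 2-fold and a median of -0.04, with Avil, Ret and Tlx3 not detected in either limb sample and a summed level of 3.13 in CKO limb and 3.26 in WT limb. Schwann cell genes had 0 of 6 past 2-fold, a median of 0.12 and a summed level of 4.72 in CKO limb and 4.25 in WT limb. Red cell genes were at least 2-fold lower in CKO limb for 6 of 8. The part of these lists in the channel differences was not tested.

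**Figure D4:**
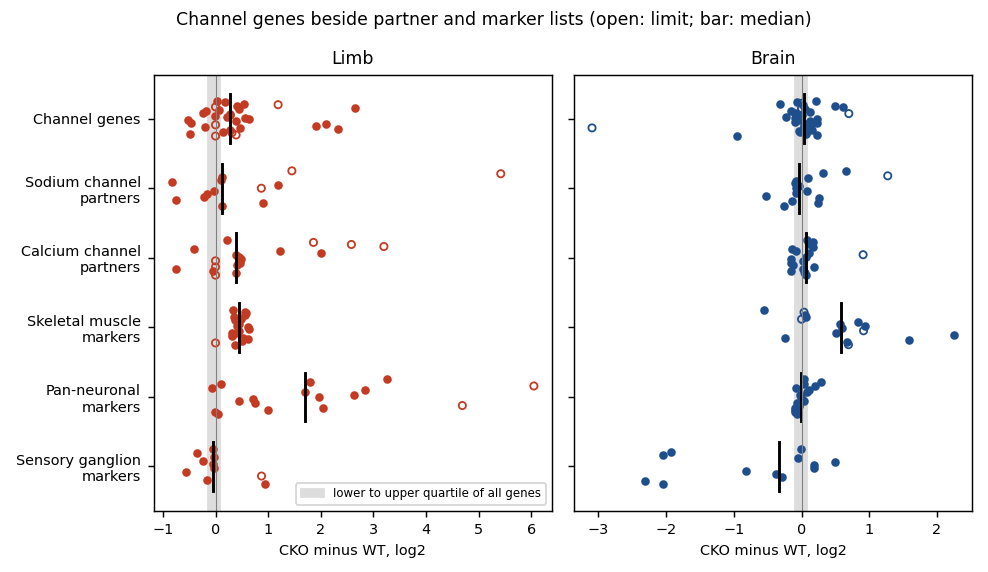
CKO minus WT log2 differences in limb (left) and brain (right) for the channel genes, the partner lists and 3 marker lists, 1 point per gene, open where the value is a limit, with a black bar at each median and a grey band between the quartiles of all genes. The medians in limb were 0.28 for channel genes, 0.11 and 0.39 for sodium and calcium channel partners, 0.44 for muscle markers, 1.70 for pan-neuronal markers and -0.04 for sensory ganglion markers.

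The CKO limb levels were set beside WT brain, where these genes are normally read. Cacng2 in CKO limb stood at 72.1% of its WT brain signal, against 11.6% in WT limb. Scn8a stood at 63.8% in CKO limb and 12.8% in WT limb. Cacna1b stood at 56.8% in CKO limb and 13.2% in WT limb. Scn3b stood at 45.1% in CKO limb and 12.0% in WT limb, and Cacng5 at 25.4% in CKO limb with no WT limb reading. At these probes all 5 remained below WT brain. Other probes put some of them level or higher: the third Scn3b probe read -2.03 in CKO limb, against -2.63 in WT brain, and the second Cacna1b probe read -2.86 in CKO limb and -2.87 in WT brain. All 5 also belonged to the 15 channel genes that WT brain held at 2-fold or more over WT limb. Both comparisons use the same WT limb array, so a low reading there raises both and the overlap is partly built in. The share of all genes in both groups is not given here. Of the 15 genes, 14 could be compared between the limb samples, and the other 9 did not pass 2-fold in CKO limb. Those 9 included Scn2a1 at 3.69% of WT brain in CKO limb, Cacnb4 at 7.05%, Scn3a at 7.10%, Scn1a at 7.63%, Cacng3 at 17.6%, Cacna2d3 at 17.7%, Cacng4 at 28.5% and Cacnb3 at 39.1%. These shares also depend on the probe: a dimmer Scn2a1 probe stood at 50.4% of WT brain in CKO limb, and the second Scn3a probe at 83.2%.

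**Figure D5:**
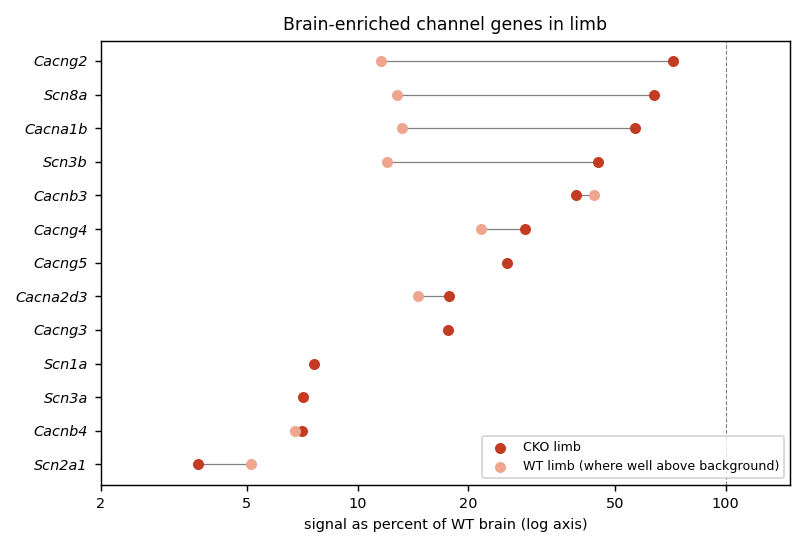
Signal in CKO limb and WT limb as a percent of the WT brain signal of the same probe (log axis) for 13 channel genes that are 2-fold or more above WT limb in WT brain. Cacng2, Scn8a, Cacna1b and Scn3b move to between 45.1% and 72.1% in CKO limb, and Scn2a1 and Cacnb4 lie under 10% in both limb samples.

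Promoter windows from RefSeq (GRCm38.p6, 250 bases before to 50 after the transcription start) were found for 29 of the 39 genes, in 40 windows, and were searched on both strands for the canonical RE1 element of 21 letters, with up to 4 of its 19 fixed letters unlike. Of 32851 mouse windows 75 held a match (0.228%), and 0 of the 40 channel windows did. The closest channel windows had 6 letters unlike, a distance that 8.78% of all windows reach. This says only that these letters are not in these windows, and an RE1 can lie far from a start site. The windows of 3 of the genes higher in CKO limb are printed on the gene's strand with each CG in capitals, because they carry the 3 largest limb differences. They hold 20 CG for Cacng2, 38 for Scn8a (the first of its 2 windows) and 35 for Cacna1b, beside a median of 7 over all windows and 9 over the 40 channel windows. These counts do not set the higher genes apart: the second Scn8a window has 12 and the Cacng5 windows 5 and 17, while 6 windows of genes under 2-fold in limb hold more CG than any of the 3 printed, up to 63 for Cacna1d. Cacng2 lies at chr15:78119231-78119530 (minus strand), Scn8a at chr15:100870395-100870694 (plus) and Cacna1b at chr2:24763103-24763402 (minus).
Cacng2: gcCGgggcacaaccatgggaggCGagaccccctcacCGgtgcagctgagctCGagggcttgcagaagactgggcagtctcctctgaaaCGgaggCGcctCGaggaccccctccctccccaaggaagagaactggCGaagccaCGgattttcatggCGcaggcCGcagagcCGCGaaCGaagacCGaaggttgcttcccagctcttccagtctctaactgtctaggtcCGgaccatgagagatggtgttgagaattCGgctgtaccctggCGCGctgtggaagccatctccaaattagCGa
Scn8a: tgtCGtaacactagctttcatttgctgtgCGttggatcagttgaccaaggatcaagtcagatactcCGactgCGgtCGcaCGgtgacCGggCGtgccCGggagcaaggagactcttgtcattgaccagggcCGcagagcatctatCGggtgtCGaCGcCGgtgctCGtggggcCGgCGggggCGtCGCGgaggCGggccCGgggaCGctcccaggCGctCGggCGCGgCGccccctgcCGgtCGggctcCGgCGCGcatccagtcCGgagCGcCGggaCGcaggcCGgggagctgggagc
Cacna1b: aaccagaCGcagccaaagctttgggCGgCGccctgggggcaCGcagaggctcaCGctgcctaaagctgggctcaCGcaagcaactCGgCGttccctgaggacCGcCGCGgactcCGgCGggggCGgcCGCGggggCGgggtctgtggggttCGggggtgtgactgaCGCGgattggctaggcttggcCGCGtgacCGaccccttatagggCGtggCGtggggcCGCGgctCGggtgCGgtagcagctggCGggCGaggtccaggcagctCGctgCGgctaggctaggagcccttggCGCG

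Of 23 channel partner genes with a window, 1 held a match: Sptbn4, the spectrin that anchors sodium channels at nodes. Its window, chr7:27396149-27396448 on the minus strand, is printed with the match in capitals. The match begins at base 149, reads on the opposite strand and has 3 letters unlike. Sptbn4 read 0.08 in CKO limb and 0.11 in WT limb, and 0.53 in CKO brain and 0.45 in WT brain, so the gene with the match differed by under 1.1-fold in either tissue.
Sptbn4: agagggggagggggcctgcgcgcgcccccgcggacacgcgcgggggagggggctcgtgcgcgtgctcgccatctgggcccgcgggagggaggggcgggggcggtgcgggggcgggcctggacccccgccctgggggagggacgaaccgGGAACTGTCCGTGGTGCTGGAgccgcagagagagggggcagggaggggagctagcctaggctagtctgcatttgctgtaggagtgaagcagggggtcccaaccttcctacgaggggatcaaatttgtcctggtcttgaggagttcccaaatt

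Proteins that work with these channels were then counted from lists of 15 sodium and 19 calcium channel partners. Unc79, Unc80 and Nrcam, 3 of 13 sodium channel partners compared, stood at least 2-fold higher in CKO limb and 0 stood lower, with a list median of 0.11 log2. Unc79, a large subunit of the NALCN leak channel complex, read 0.47 in CKO limb and was not well above background in WT limb, at least 42.7-fold. Unc80, its partner in that complex, read -3.5 in CKO limb without detection in WT limb, at least 2.73-fold, while the pore gene Nalcn was not detected in either limb sample. Nrcam, a cell adhesion molecule that gathers sodium channels at nodes, read -0.86 in CKO limb and -2.05 in WT limb, 2.28-fold higher.

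Of 18 calcium channel partners, 5 stood at least 2-fold higher in CKO limb and 0 lower, with a median of 0.39 log2. Rims2, an active zone protein that tethers calcium channels near vesicles, was at least 9.17-fold higher, with -1.75 in CKO limb and no detection in WT limb. Rimbp2, which links RIM proteins to the channels, was at least 5.98-fold higher. Jph3 and Jph4, the neuronal junctophilins that join surface and internal membranes, were 3.99- and 2.33-fold higher, and the calcium sensor Cabp1 was at least 3.63-fold higher. Their muscle relatives in the list kept to the range of the muscle markers: Jph1 differed by 0.44 log2, Jph2 by 0.38, the release channel Ryr1 by 0.46 and the adaptor Stac3 by 0.40.

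In brain, 35 channel genes could be compared, 31 of them measured on both arrays. No channel gene was called at least 2-fold higher in CKO brain, 1 was at least 2-fold lower and 34 were not called. Over all 18945 genes 1.37% were higher and 1.22% lower. Among the 34, Cacna2d4, Cacng1 and Cacng6 have only a lower bound, so 2-fold or more is not excluded for them. The median difference was 0.03 log2 in the channel genes and -0.01 over all genes. Of the 31 genes measured on both arrays, 29 were under 1.5-fold apart and 16 lay within 2 SD of repeated spots from 0. The genes that stood apart in limb were close in brain: Scn8a differed by 0.14 ± 0.027 log2, Scn3b by 0.14 ± 0.027, Cacna1b by 0.23 ± 0.027 and Cacng5 by -0.31 ± 0.068. Cacng2 was 1.53-fold higher in CKO brain, and 2 more of its probes gave 1.94- and 1.44-fold.

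The gene that was lower in CKO brain was Scn9a, a sodium channel of sensory and sympathetic neurons. Its 1 probe was not well above background in CKO brain and read -3.10 in WT brain, at least 8.53-fold lower. Scn10a, from the same neurons, read -5.11 in CKO brain, against -4.16 in WT brain, a difference of -0.95 ± 0.31 log2 that its second probe shared (-0.95). Scn11a, the remaining sensory neuron channel, read -4.56 in CKO brain and -4.78 in WT brain (0.22 ± 0.31). The sensory ganglion list had 12 genes compared in brain, 4 of them at least 2-fold lower in CKO brain, among them Avil, P2rx3 and Gfra3, with differences of -2.05, -2.05 and -1.93 log2. The list's median was -0.33 and its summed level 4.71 in CKO brain and 7.48 in WT brain, while Ret was not detected in either. Cartilage genes were at least 2-fold higher in CKO brain for 10 of 12, and inner ear genes for 5 of 6. The part of these lists in the Scn9a difference was not tested.

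A few smaller brain readings came from single probes. Cacna2d4, an α2δ gene of the retina, read -4.66 in CKO brain and was not well above background in WT brain, at least 1.62-fold. Cacng3 read -2.50 in CKO brain and -2.99 in WT brain, 1.40-fold. One of the 4 Cacnb4 probes, on chr2:52311138-52311197, read -3.56 in CKO brain and -2.15 in WT brain, 2.65-fold lower, while the other 3 differed by no more than 0.09 log2 in size. Of the partners, 1 of 15 sodium channel partners stood at least 2-fold higher in CKO brain, Nalcn, at least 2.42-fold, and 0 of 18 calcium channel partners passed in either direction. Pan-neuronal genes had 0 of 17 past 2-fold in brain. Skeletal muscle genes had 2 of 16 at least 2-fold higher in CKO brain and a median of 0.59 log2, beside which Cacna1s read -3.46 in CKO brain and -3.36 in WT brain, and Cacng1 and Cacng6 were detected in CKO brain alone with bounds of 0.00.

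Genotype was tested once over all 4 arrays, in a limma fit with tissue as a block over 15629 genes that were well above background and not saturated on every array. After Benjamini-Hochberg adjustment 0 of the 24 channel genes in the fit passed, and 0 at an unadjusted p under 0.05, where 0% of all genes passed after adjustment and 984 before it. The lowest adjusted p was 0.66. With 1 residual degree of freedom the fit counts any unlike genotype difference in limb and brain as error. Cacng2, for example, averaged 1.62 ± 0.64 (SE) higher in CKO, and Scn8a 1.23 ± 0.69 (SE). Genes not detected on every array, Cacng5, Scn9a and the other 13, were outside the fit.

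The tissues were compared to show where each gene is normally read. In WT, 34 channel genes could be compared between brain and limb: 15 were at least 2-fold higher in brain, 5 at least 2-fold lower and 14 were not called. Over all 18434 genes 15.8% were higher and 18.9% lower. Among the 14, Scn10a, Scn11a and Cacna1a have only a lower bound, so 2-fold or more is not excluded for them. The median was 0.73 log2 for the channel genes and 0.00 for all genes. Sodium pore genes leaned most to brain, 6 of 9 higher and 0 lower. Scn2a1 read 0.17 in WT brain and -4.11 in WT limb, 19.5-fold higher, and Scn3a and Scn1a were at least 17.5- and 17.2-fold higher. The 5 genes lower in brain were the muscle genes Cacna1s (34.8-fold), Cacng1 (at least 11.6-fold), Cacng6 (at least 2.59-fold) and Cacnb1 (2.01-fold), and the T-type gene Cacna1g (3.44-fold).

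The same limma model tests brain against limb with genotype as a block. After Benjamini-Hochberg adjustment 13 of 24 channel genes passed (54.2%), 9 higher and 4 lower in brain, where 66.6% of all genes passed, so the share of channel genes was not above that of all genes. Cacnb4 was 3.88 ± 0.053 (SE) log2 higher in brain with an adjusted p of 0.0057, and Scn2a1 4.56 ± 0.18 (SE) higher with 0.0059. Cacna2d3 was 2.64 ± 0.10 (SE) higher with an adjusted p of 0.0058, and Cacng4 2.03 ± 0.13 (SE) higher with 0.0072. Cacnb3, Cacng7, Cacng8 and Cacna1d rose in brain by 1.19, 0.76, 0.59 and 0.47 log2. On the limb side, Cacna1s fell by 5.45 log2 in brain with an adjusted p of 0.0059, followed by Cacna1g, Cacnb1 and Cacna2d2, which fell by 1.53, 1.20 and 0.63. Cacna2d2 fell at its brightest probe only, and its other probes read higher in brain.

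Of the genes higher in CKO limb, the 4 in this fit did not pass for tissue, with both brain arrays above both limb arrays at each. The fit counts their unlike genotype differences in limb and brain as error, so this outcome follows in part from how they were chosen. Scn3b was 2.17 ± 0.56 (SE) log2 higher in brain with an adjusted p of 0.058, Cacna1b 1.99 ± 0.59 (SE) with 0.076, Cacng2 2.10 ± 0.64 (SE) with 0.080 and Scn8a 1.88 ± 0.69 (SE) with 0.11. In CKO alone the gap between brain and limb was narrower for each. This restates their choice by a limb difference, which was larger than their brain difference, and is no separate result. Scn3b read 4.0 in CKO brain and 2.71 in CKO limb, and Scn8a 1.21 in CKO brain and 0.42 in CKO limb. Cacna1b read -0.24 in CKO brain and -1.29 in CKO limb, and Cacng2 -0.68 in CKO brain and -1.76 in CKO limb. In WT each lay 7.59- to 8.65-fold higher in brain.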

How the data were processed

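Total RNA from 4 samples was labelled with Cy3 and hybridised to 1-colour Agilent arrays, per the labels' protocols. The submitters' processing notes name Agilent Feature Extraction 9.5.3.1 as the software. The processed intensity that the authors deposited is linear and, per the file headers, had background subtracted and was detrended array by array, without scaling across arrays. Their series table repeats it, within 0.0071 log2 over 45018 spots.

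Control spots and spots flagged as outliers were left out, log2 of the deposited processed intensity was taken, and each array's 75th percentile was subtracted. Spots were averaged over 41174 probes, of which 26933 were named through their accession, 5570 through a symbol, 894 through a synonym, and 7777 kept the file's name. Of the 75 channel probes, 61 matched by accession.

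A gene was compared where at least 1 array of the pair was well above background. Where 1 was not, the bright array was set against the lowest detected signal of the dim array (-5.76 in CKO limb, -4.95 in WT limb, -6.19 in CKO brain and -5.36 in WT brain) or the probe's own signal if higher, and the result is written "at least"; a bound pointing the other way was set to 0. The number of arrays limits the precision. Tests across arrays used limma 3.58.1 (R 4.3.3) with Benjamini-Hochberg adjustment at 0.05, and the rest used Python 3.11.15. The limma fit was also run on simulated data, with the same changes in limb and brain and repeat-spot noise alone. That setting leaves out differences between embryos and unlike genotype differences in limb and brain. Alternatives were normexp with an offset of 50, quantile and median scaling, other filters, probe averaging, kept outlier spots, the series table, and 1.5- and 3-fold thresholds. Named genes were all detected members, Rest, and up to 4 partners or markers per list that differed most at 2-fold or more; other named genes were chosen after their values were seen. Members and lists were chosen with earlier results of these data known. Some members and list genes are not reported here by name.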

Additional observations from a re-analysis of the deposited data

How the results depend on the processing

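The limb count ran between 4 and 6 genes at least 2-fold higher in CKO limb over all alternatives, where 1.53% to 4.77% of all genes were higher, and 0 were lower in each. Cacng5 dropped out with normexp correction, with detection on both arrays and at 3-fold; Cacna1h joined at 1.5-fold, Cacng3 without a filter and Cacna1s with averaged probes. Over these settings the difference ran from 1.53 to 3.75 log2 for Cacng2, 2.04 to 2.38 for Scn8a, 1.46 to 2.15 for Cacna1b, 1.89 to 2.01 for Scn3b and 0.57 to 3.40 for Cacng5. The upper ends for Cacng2 and Scn8a come from probe averaging, which took in WT limb readings not well above background. The upper end for Cacng5 is the gap to such a reading without a bound. These upper ends are therefore not differences measured on both arrays. In CKO brain the count of lower genes was 0 with detection on both arrays, which leaves out Scn9a, and 2 both without a filter (Scn7a, Scn9a; 2.43% of all genes) and at 1.5-fold (Scn10a, Scn9a; 1.98%). The count of higher genes in CKO brain was 2 without a filter (Cacna2d4, Cacng6; 2.61% of all genes) and 2 at 1.5-fold (Cacna2d4, Cacng2; 3.48%). Genes lower in WT brain than in WT limb numbered 3 with normexp, with detection on both arrays and at 3-fold. At each of these settings the share of all genes lower in WT brain was also smaller than with the main processing. Without the filter on dim probes the genotype test passed 1 channel gene, Cacna1f, which was above background on no array. In that fit 14.8% of all genes passed. Cacna1f differed by -0.85 log2 in limb and -0.81 in brain, CKO minus WT. The lowest detected level was -5.76 in CKO limb against -4.95 in WT limb, and -6.19 in CKO brain against -5.36 in WT brain. The tissue test passed 20 channel genes without that filter, and its share over all genes is not given here. The cause of these results was not tested. No CKO minus WT difference of 2-fold or more changed sign. Of 250 single-gene limb values 217 stayed within the repeat-spot SD and 33 did not, and in brain 231 of 276 stayed and 45 did not.

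Depth of signal limits the dim genes: Cacng3, Cacna1a, Scn10a and Scn1a sit within reach of the detection limit in limb, where the CKO array reads lower than the WT array. No replicate was available, so no difference between CKO and WT within a tissue carries an error between embryos. The genotype test over all 4 arrays pairs CKO with WT by tissue; replicate numbers give no pairing, since every group has replicate 1 alone.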
